A study of Rattus norvegicus with 8 samples.

Results

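Genes of the replication fork and of DNA repair were followed in the rat kidney that remains after its partner has been removed. The set held 48 genes, 32 of the fork and 16 of repair, chosen by name among the 35237 genes or transcripts that the array distinguishes. Genes of origin licensing and of nucleotide synthesis were left out of the set. For 39 of the 48 a probe was found through its RefSeq accession. By that route no probe was matched to Gins1, Rpa1, Uhrf1, Chaf1a, Clspn, Topbp1, Blm, Fanci or Msh6, which are therefore not analysed here. The array's own gene names were not searched, so these genes may still have a probe.

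The samples were right kidneys of male rats of the inbred strain F344/NSlc, aged 10 weeks, 4 of them sham-operated and 4 deprived of the other kidney (unilateral nephrectomy). The series text gives an interval of 2 days, whereas the source label gives 1 day for the sham group and 2 days for the nephrectomized group, so that operation and interval cannot be told apart if the source label is right. Total RNA of each rat was hybridised to its own 1-colour array, and each of 2 slides carried 2 sham and 2 nephrectomized rats. Between 54.8% and 65.5% of gene probes were well above background on an array, and no gene spot was saturated. The RNA came from kidney tissue and not from sorted cells, so a change in the number of cells that express a gene and a change in mRNA per cell cannot be told apart. Of 14 proximal tubule markers tested, 13 were well above background on all 8 arrays, as were all 10 of the thick limb and distal nephron and all 7 of the podocyte.

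To copy DNA, a helicase opens the duplex, primase and polymerase alpha lay down primers, and polymerases delta and epsilon extend them while held to the template by the ring-shaped clamp PCNA. The clamp loader RFC places the ring, RPA covers exposed single strands, and other proteins rebuild chromatin behind the fork or halt the cycle when the fork stalls. Some repair routes, above all homologous recombination and the Fanconi pathway, work mainly on replicated DNA, whereas base excision and end joining serve cells in any phase of the cycle. Most cells of the adult kidney rest outside the cycle, and the tissue grows after loss of the other kidney.

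Of the 39 genes with a matched probe, 37 could be tested. The probes of Pola2, a subunit of polymerase alpha, and Brca1, which directs recombination, were too close to background in both groups. Among the 25 fork genes tested, 14 were higher after nephrectomy and none was lower by limma, with p-values adjusted by Benjamini-Hochberg over all 19865 genes tested and a threshold of 0.05 (unadjusted, 18 were higher and 0 lower). Among the 12 repair genes tested, 6 were higher and none lower (unadjusted, 8 and 0). Over all genes, 2.57% were called higher and 1.02% lower, and 10.1% were higher and 7.6% lower unadjusted. The rises lay between 1.3-fold (Rpa2) and 3.05-fold (Chaf1b) for genes measured in both groups. The median log2 fold change was 0.50 for the fork genes and 0.49 for the repair genes, against -0.00041 over all genes tested.

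A gene entered the test if its probe was well above background on all arrays of either group, which favours genes that are higher in the group that meets the rule. Only the nephrectomized group met it for Pole, Pole2, Gins2, Tonsl and Chek1 of the fork and for Brca2 and Fancd2 of repair. In the sham rats Pole and Tonsl were above background on 0 of 4 arrays, and the other 5 genes on 2 or 3. Of the 20 fork genes whose probe was well above background on all 8 arrays, 10 were called higher, and of the 10 repair genes 4 were, against 2.18% of all such genes. With those alone the median log2 fold change was 0.42 for the fork and 0.19 for repair. The repair median is unstable because it falls in a gap. The 6 called repair genes had log2 fold changes of 0.79 to 1.46, the other 6 had -0.054 to 0.19, and no repair gene lay between.

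**Figure D1:**
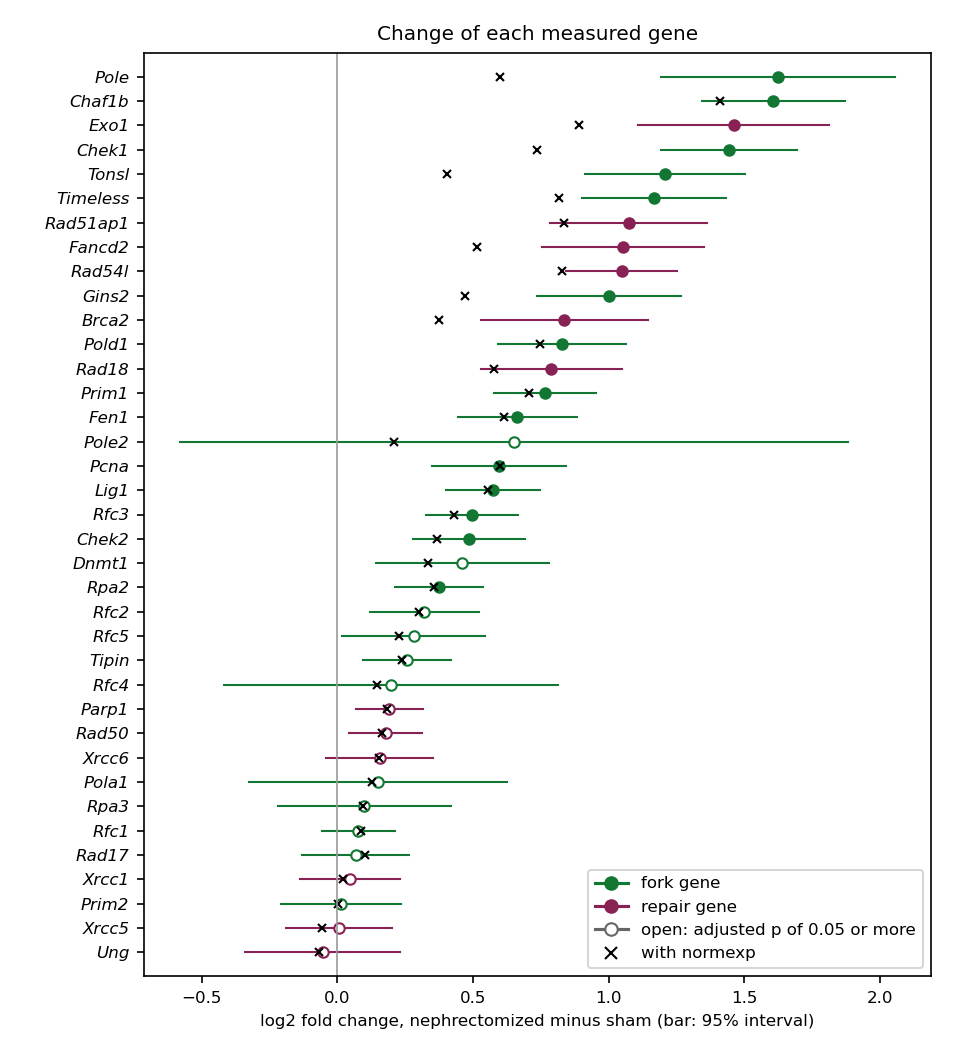
The log2 fold change (nephrectomized minus sham, x axis) of each of the 37 genes tested is plotted with its 95% interval, for fork genes in green and repair genes in purple, with filled circles for the 20 genes called higher and crosses for the values after normexp background correction. Pole and Chaf1b stand at the top, Ung and Xrcc5 at the bottom, and crosses lie far to the left of the circles for Pole, Tonsl and Fancd2.

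Promoters were read from RefSeq (build GRCr8) for 44 of the 48 genes, over the 250 bases before the annotated start. The search was for the E2F site, bound by factors that switch on genes for S phase, in the forms TTTCCCGC, TTTCGCGC, TTTGCCGC and TTTGGCGC on both strands. At least 1 form was present for 6 of the 44 genes (13.6%), against 1.77% of all 27457 promoters. It was found for 1 of 18 genes called higher (Chek1) and for 3 of 16 that were tested and not called (Pola1, Tipin and Ung), the other 2 being Gins1 and Topbp1. A CCAAT box (CCAAT on either strand) was present for 9 of the 18 genes called higher, 4 of the 16 not called and 34.2% of all promoters. The last 150 bases before the start are shown for Chek1, called higher, and for Tipin and Ung, not called, with the E2F match in capitals. They show that these letters stand close to the start in genes of either outcome. A match is not evidence of binding, and its absence says only that these letters are not in this window.
Chek1, chr8:44629844-44629993, minus strand: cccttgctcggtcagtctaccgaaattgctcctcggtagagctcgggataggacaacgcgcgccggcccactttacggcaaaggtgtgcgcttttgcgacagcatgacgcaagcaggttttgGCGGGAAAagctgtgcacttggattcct
Tipin, chr8:73675941-73676090, plus strand: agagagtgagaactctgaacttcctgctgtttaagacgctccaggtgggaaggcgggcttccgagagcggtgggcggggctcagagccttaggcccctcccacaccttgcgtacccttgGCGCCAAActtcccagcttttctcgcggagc
Ung, chr12:48154046-48154195, minus strand: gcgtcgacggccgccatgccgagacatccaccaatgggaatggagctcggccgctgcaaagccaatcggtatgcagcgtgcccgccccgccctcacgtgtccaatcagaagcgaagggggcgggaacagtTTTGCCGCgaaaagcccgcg

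The values of single rats are given below as a percentage of the 75th percentile of gene probes on the same array, in the order of replicates 1 to 4. They can be compared between rats for a given gene but not between genes, since probes differ in brightness.

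Among the polymerases and primase, 3 of 6 genes tested were higher, against 2.57% of all genes. Pole, the catalytic subunit of polymerase epsilon, which copies the leading strand, was at 2.8, 3.04, 3.12 and 4.56% in the sham rats and 7.57, 10.6, 12.2 and 11.2% in the nephrectomized rats. The groups did not overlap. Since 0 of 4 sham rats had a signal well above background, only a bound on the difference of means can be given, and it was 2.16-fold. The bound takes no account of the spread between rats. Pole entered the test (adjusted p = 0.00273 by limma on the values as measured) through the nephrectomized group alone. The bound also holds only for the background subtraction of the deposited files. With normexp correction, whose offset itself shrinks the folds of dim probes, the log2 fold change was 0.60, which is below the bound. Pold1, the catalytic subunit of polymerase delta, was 1.78-fold higher (adjusted p = 0.00375 by limma, 95% interval 1.51 to 2.09).

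Primase is built of Prim1, which makes the RNA primer, and Prim2, its larger partner. Prim1 was at 163, 144, 147 and 153% in the sham rats and 238, 236, 282 and 279% in the nephrectomized rats. Every nephrectomized rat was above every sham rat, and the difference was 1.7-fold (95% interval 1.49 to 1.94, adjusted p = 0.00226 by limma), with a second probe at a log2 fold change of 0.78. Prim2 was at 39.2, 49, 51.6 and 50.2% in the sham rats and 48.5, 45.2, 51.2 and 45.8% in the nephrectomized rats. Its groups overlapped and it did not pass (fold 1.01, 95% interval 0.866 to 1.18, adjusted p = 0.961 by limma).

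Pola1, the catalytic subunit of polymerase alpha, did not pass either (log2 fold change 0.15, SE 0.21). Its sham rats alone spread from 12.4 to 23.9%. Pole2, the second subunit of polymerase epsilon, ranged from 1.86 to 13.9% in the sham rats and gave a log2 fold change of 0.65 with an SE of 0.54. The interval of the fold was 0.798 to 1.54 for Pola1, below the rise of Prim1, and 0.668 to 3.69 for Pole2, too wide to tell a fall from a rise.

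Of the clamp and the clamp loader, 2 of 6 genes were higher, against 2.57% of all genes. Pcna, the clamp itself, was at 439, 477, 483 and 482% in the sham rats and 635, 652, 889 and 692% in the nephrectomized rats. The groups were well apart, with nephrectomized rat 3 highest, and the rise was 1.51-fold (95% interval 1.27 to 1.79, adjusted p = 0.0235 by limma). Leaving out sham rat 2, 3 or 4 or nephrectomized rat 4 ended the call (adjusted p 0.0585 to 0.0688 by limma). A second probe of Pcna, at a log2 fold change of 0.72, missed the threshold in a fit of all kept probes (adjusted p = 0.0742 by limma).

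Rfc3, a small subunit of the loader, rose 1.41-fold (95% interval 1.25 to 1.59, adjusted p = 0.00938 by limma). Rfc1, the large subunit that holds the clamp, was at 585, 531, 587 and 544% in the sham rats and 607, 584, 574 and 604% in the nephrectomized rats. These groups overlapped within a narrow range (fold 1.06, 95% interval 0.96 to 1.16), and a second probe pointed downward with a log2 fold change of -0.086. Rfc2 and Rfc5, which are further small subunits, had log2 fold changes of 0.32 and 0.28, neither past the threshold (adjusted p = 0.0969 and 0.251 by limma). Rfc4 was uniform in the sham rats, at 47.9 to 50.3%, but 59.7, 60.4, 90.1 and 31.4% in the nephrectomized rats. Nephrectomized rats 3 and 4 thus lay on opposite sides of the sham group, and the gene did not pass (adjusted p = 0.763 by limma).

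Gins2, a subunit of the GINS complex that activates the replicative helicase, was at 6.99, 7.19, 7.99 and 6.94% in the sham rats and 11.4, 15.9, 15.4 and 16% in the nephrectomized rats. It was 2-fold higher without overlap (95% interval 1.67 to 2.41, adjusted p = 0.00272 by limma), with nephrectomized rat 1 below the other nephrectomized rats. Entry of Gins2 to the test rested on the nephrectomized arrays alone, since only 3 of 4 sham arrays passed the background rule. That route favours a rise, which weakens the p-value and the lack of overlap as evidence.

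Both genes of Okazaki fragment maturation were higher, against 2.57% of all genes. Fen1, the nuclease that trims the displaced flap, was at 542, 542, 581 and 617% in the sham rats and 792, 836, 1020.1 and 982% in the nephrectomized rats, a 1.58-fold rise (95% interval 1.36 to 1.85, adjusted p = 0.00806 by limma). Lig1, the ligase that seals the remaining nick, was at 434, 367, 399 and 423% in the sham rats and 570.1, 574, 647 and 624% in the nephrectomized rats. It rose 1.49-fold (95% interval 1.32 to 1.68, adjusted p = 0.00514 by limma). In both, each nephrectomized rat exceeded each sham rat.

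RPA is a trimer, of which the middle and the small subunit could be measured. Rpa2 was at 177, 156, 160.4 and 165% in the sham rats and 202, 204, 234 and 214% in the nephrectomized rats. The groups did not overlap, and the rise of 1.3-fold (95% interval 1.16 to 1.45, adjusted p = 0.0275 by limma) was the smallest among the genes called. Leaving out sham rat 2, 3 or 4 or nephrectomized rat 2 or 4 ended that call (adjusted p 0.056 to 0.0971 by limma). Rpa3 was at 168, 203, 223 and 221% in the sham rats and 212, 192, 278 and 195% in the nephrectomized rats, which overlapped (log2 fold change 0.099, SE 0.14, adjusted p = 0.774 by limma).

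Genes that copy chromatin behind the fork included the largest rise among genes measured in all rats. Chaf1b, a subunit of the assembly factor that deposits new histones, was at 68.8, 58.7, 54.7 and 61.5% in the sham rats and 158, 171, 215 and 202% in the nephrectomized rats. The lowest nephrectomized rat was thus far above the highest sham rat, and the fold was 3.05 (95% interval 2.54 to 3.66, adjusted p = 0.000954 by limma). Tonsl, which reads newly deposited histones and guards stalled forks, was at 3.5 to 4.48% in the sham rats and 7.86 to 11.3% in the nephrectomized rats. In 0 of 4 sham rats did its signal exceed background by that rule, and the bound on its fold was 1.93. The bound leaves out the spread between rats, and the 95% interval of the fold as measured began lower, at 1.88. Like Pole, Tonsl entered the test (adjusted p = 0.00216 by limma) through the nephrectomized group alone. That bound too depends on the background subtraction, and normexp, whose offset shrinks the folds of dim probes, gave a log2 fold change of 0.40. Dnmt1, which copies DNA methylation to the new strand, was at 27.3, 21.8, 23.1 and 22.1% in the sham rats and 30.5, 40.3, 25.8 and 34.6% in the nephrectomized rats. Its groups overlapped and its brightest probe did not pass (log2 fold change 0.46, adjusted p = 0.126 by limma), whereas a second probe with a log2 fold change of 0.49 passed in a fit of all kept probes (adjusted p = 0.0357 by limma).

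Of the genes for fork protection and the replication checkpoint, 3 of 5 were higher, against 2.57% of all genes. Chek1, the kinase that halts the cycle when forks stall, was at 8.58, 6.39, 8.16 and 8.43% in the sham rats and 19.8, 20.2, 24 and 21.5% in the nephrectomized rats. It was 2.72-fold higher (95% interval 2.28 to 3.24, adjusted p = 0.00108 by limma), with a gap between the groups wider than either group. As for Gins2, only 3 of 4 sham arrays passed the background rule, so Chek1 was tested by way of the nephrectomized arrays alone. The same caution holds for its p-value and gap. Chek2, the checkpoint kinase that answers to broken DNA, rose 1.4-fold (adjusted p = 0.0258 by limma). Its call ended when sham rat 1, 2 or 3 or nephrectomized rat 2 or 4 was left out (adjusted p 0.0534 to 0.084 by limma). Rad17, which loads a checkpoint clamp, was at 40.8, 47.5, 48.8 and 50.4% in the sham rats and 51, 44.4, 52.3 and 48.5% in the nephrectomized rats, with overlapping groups (log2 fold change 0.067, SE 0.087).

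Timeless and Tipin together form the complex that travels with the fork and steadies it. Timeless was at 22.1, 17.2, 20.5 and 21.2% in the sham rats and 39.1, 42, 52.7 and 48.6% in the nephrectomized rats, a 2.25-fold rise (95% interval 1.87 to 2.7, adjusted p = 0.00166 by limma). Tipin was at 31.9, 33.5, 34.3 and 34.7% in the sham rats and 36.7, 41.7, 43.6 and 38.8% in the nephrectomized rats. Its groups did not overlap, as in 7.6% of all genes with the nephrectomized rats higher, but it did not pass (log2 fold change 0.26, SE 0.070, adjusted p = 0.0967 by limma).

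**Figure D2:**
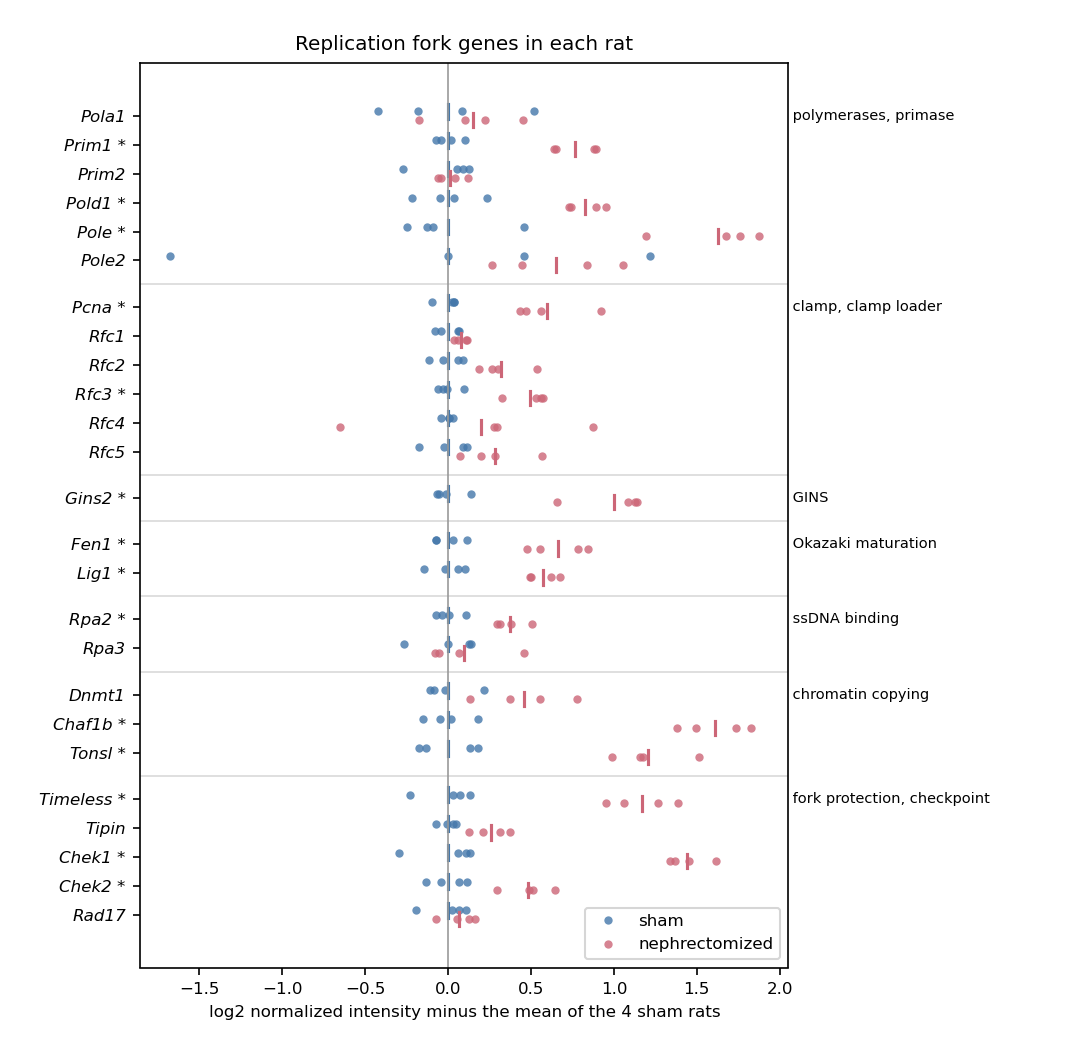
Each row is 1 of the 25 fork genes tested, and each point 1 rat (blue sham, red nephrectomized, 4 rats per group), placed on the x axis at its log2 normalized intensity minus the mean of the sham rats, with a short bar at each group mean and a star beside the 14 genes called higher. The red points lie to the right of all blue points in 16 rows, against 7.6% of all genes, and furthest in Pole and Chaf1b. Of these, Pole, Tonsl, Gins2 and Chek1 entered the test through the nephrectomized group alone. Prim2, Rfc1 and Rad17 overlap, and the nephrectomized rats of Rfc4 fall on both sides.

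Among the repair genes, those of homologous recombination were higher in 4 of 5 tested, against 2.57% of all genes. Exo1, a nuclease that resects broken ends and also serves mismatch repair, was at 10.9, 9.78, 8.17 and 8.2% in the sham rats and 20.2, 22.8, 30 and 29.7% in the nephrectomized rats. The nephrectomized rats of slide 2 were above those of slide 1, and the difference in log2 was 1.06 within slide 1 and 1.87 within slide 2 (over both, 2.76-fold, 95% interval 2.16 to 3.52, adjusted p = 0.00205 by limma). Rad51ap1 and Rad54l, which assist strand invasion, were 2.11- and 2.07-fold higher (adjusted p = 0.00296 and 0.00108 by limma). Brca2, which acts on resected ends, was 1.79-fold higher (adjusted p = 0.0128 by limma), with a signal well above background in 3 of 4 sham rats. Its call, on which the count of 4 rests, ended with normexp (log2 fold change 0.38, adjusted p = 0.0984 by limma) and without the filter on dim probes.

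Rad50, part of the complex that first holds a broken end, was at 14.4, 14.3, 14.7 and 14.5% in the sham rats and 15.4, 16.5, 16.2 and 17.5% in the nephrectomized rats. The groups did not overlap, as in 7.6% of all genes with the nephrectomized rats higher. The difference was small and did not pass (log2 fold change 0.18, SE 0.059, adjusted p = 0.155 by limma). It was the single gene of the recombination group that was not called.

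Fancd2, the protein whose ubiquitination switches on crosslink repair, was at 4.9, 5.01, 4.43 and 4.55% in the sham rats and 9.16, 7.76, 12.1 and 10.7% in the nephrectomized rats. It was 2.07-fold higher (95% interval 1.69 to 2.55, adjusted p = 0.00366 by limma), although well above background in 2 of 4 sham rats. Rad18, the ligase that marks PCNA at blocked forks so that damage can be bypassed, was at 17.6, 19.3, 22.2 and 20.2% in the sham rats and 29.5, 31.1, 39.8 and 37% in the nephrectomized rats. It rose 1.73-fold (95% interval 1.44 to 2.07, adjusted p = 0.00799 by limma), without overlap.

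Of the 5 genes of end joining, base excision and single-strand break repair, limma called 0 in either direction, and 1 (Parp1) had an unadjusted p under 0.05. Over all genes, limma called 2.57% higher and 1.02% lower, and 10.1% were higher unadjusted. Xrcc5 and Xrcc6 encode the Ku proteins, which cap broken ends for joining. Xrcc5 was at 139.6, 154, 151 and 162% in the sham rats and 149, 149, 175 and 138% in the nephrectomized rats (fold 1, 95% interval 0.876 to 1.15). Xrcc6 was at 73.6, 70.6, 62.7 and 61.8% in the sham rats and 76.8, 69.1, 82.6 and 70.9% in the nephrectomized rats (fold 1.11, 95% interval 0.972 to 1.28). For both the groups overlapped, and the intervals leave out rises as large as those of the recombination genes called.

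Xrcc1, the scaffold of single-strand break repair, was at 1003, 796, 842 and 902% in the sham rats and 957, 872, 910.4 and 908% in the nephrectomized rats, with full overlap (adjusted p = 0.822 by limma). Parp1, the enzyme that senses strand breaks, was at 1015, 999, 1059 and 1075% in the sham rats and 1147, 1187, 1205 and 1197% in the nephrectomized rats. Its groups did not overlap, as in 7.6% of all genes with the nephrectomized rats higher. The difference of 1.14-fold did not pass (95% interval 1.05 to 1.24, adjusted p = 0.105 by limma). Ung, which removes uracil from DNA, was the only gene of the 37 with a negative log2 fold change (-0.054, SE 0.13). It was at 162 to 182% in the sham rats and 143 to 216% in the nephrectomized rats, and its difference in log2 was -0.23 within slide 1 and 0.13 within slide 2.

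**Figure D3:**
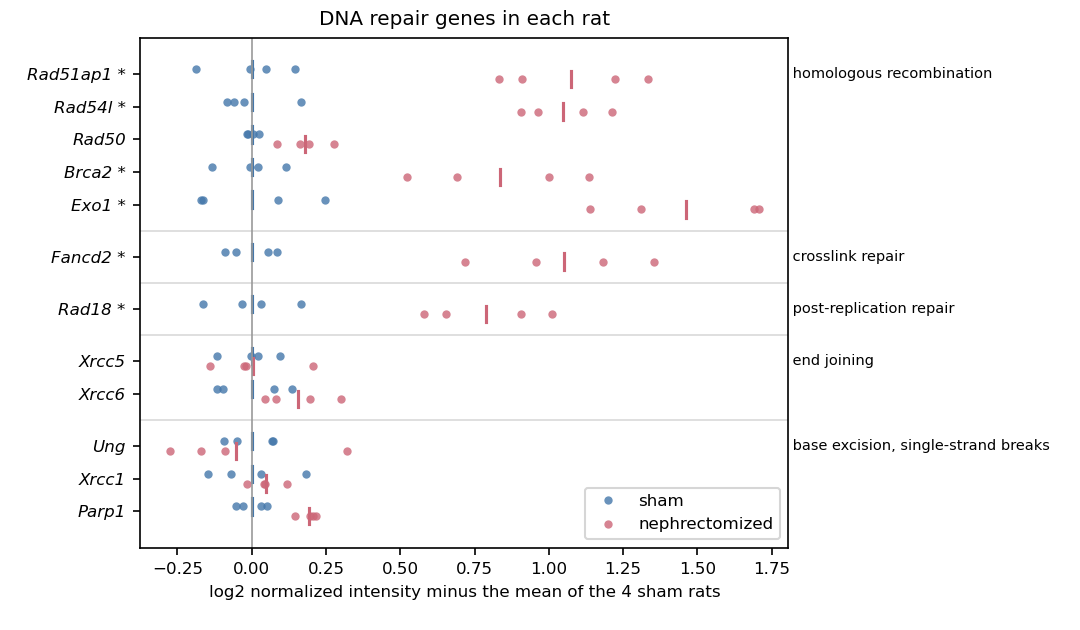
Each row is 1 of the 12 repair genes tested, and each point 1 rat (blue sham, red nephrectomized, 4 rats per group), placed on the x axis at its log2 normalized intensity minus the mean of the sham rats, with a short bar at each group mean and a star beside the 6 genes called higher. The called genes of recombination, crosslink and post-replication repair stand apart from the sham rats, while the lower 5 rows stay between -0.3 and 0.4.

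Several of these proteins work as fixed partners, so the ratio of partners within an array was compared between the groups. Such a ratio does not change when all values of an array are shifted by the same amount in log2. Quantile scaling can change it and was not applied to the pairs. The log2 ratio of Timeless over Tipin was -0.74 ± 0.18 (SD, n = 4) in the sham rats and 0.17 ± 0.15 (SD, n = 4) in the nephrectomized rats. That of Prim1 over Prim2 was 1.69 ± 0.25 (SD, n = 4) and 2.44 ± 0.13 (SD, n = 4), and that of Rfc3 over Rfc1 was -1.32 ± 0.07 (SD, n = 4) and -0.91 ± 0.14 (SD, n = 4). For these 3 pairs the groups did not overlap, with differences of 0.91, 0.75 and 0.42. An exact permutation test (two-sided) gave p = 0.0286, the smallest that 4 against 4 rats allow, or 0.0857 after Benjamini-Hochberg adjustment over 9 pairs. With 3 pairs apart, none could pass after adjustment. The pairs were chosen with earlier results of these data known. Each of the 3 sets a gene called higher against a gene not called in the same arrays. The p-values therefore add no support beyond those calls. Rfc2, Rfc4 and Rfc5 over Rfc1, Rpa2 over Rpa3 and Xrcc6 over Xrcc5 overlapped between the groups (exact permutation p = 0.0571 to 0.629), as did Pole over Pole2, where Pole has only a bound. With normexp the difference fell from 0.91 to 0.58 for Timeless over Tipin, and was 0.71 for Prim1 over Prim2 and 0.34 for Rfc3 over Rfc1.

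**Figure D4:**
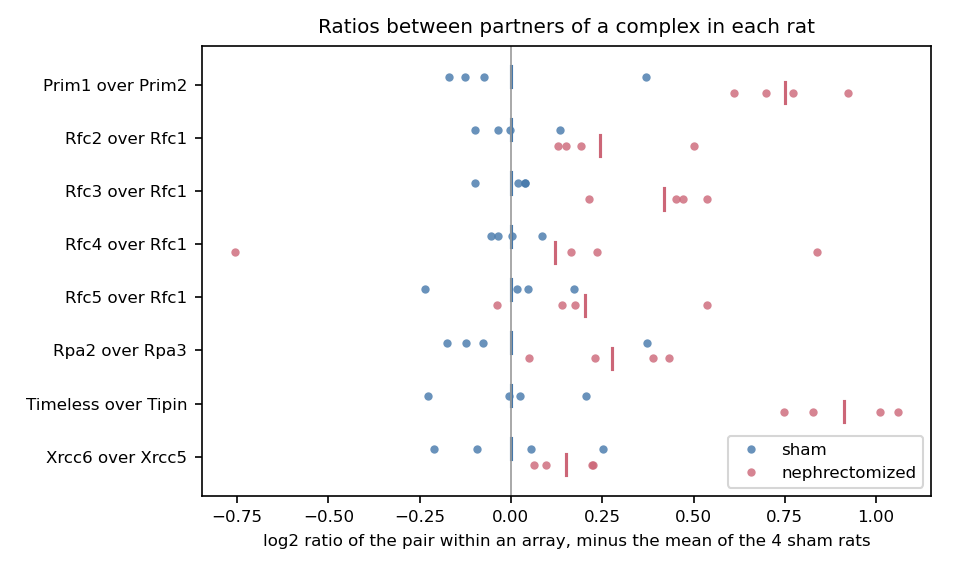
The x axis gives the log2 ratio of partners of a complex within each array, minus the mean of the 4 sham rats, with each point 1 rat (blue sham, red nephrectomized) and a short bar at each group mean. Groups are apart for Prim1 over Prim2, Rfc3 over Rfc1 and Timeless over Tipin, and overlap in the other 5 rows.

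The nephrectomized rats differed among themselves, and not in the same order for each group of genes. Measured from the sham mean in log2, the median over the 25 fork genes was 0.38, 0.51, 0.65 and 0.56 in nephrectomized rats 1 to 4, with rat 3 highest. Over the 12 repair genes it was 0.36, 0.43, 0.51 and 0.59, with rat 4 highest. For the 6 polymerase and primase genes the median was 0.67 to 0.69 in each rat, but the single genes were not level. Pole, Prim1 and Pold1 were higher in rats 3 and 4 than in rats 1 and 2, and Pole2 was lower. For the clamp and its loader the median was 0.57 in rat 3 and 0.25 to 0.29 in the others. Among the 20 genes called higher, nephrectomized rat 3 was the highest of its group for 17 and nephrectomized rat 1 the lowest for 18. Over the 510 genes called higher that had a value in every nephrectomized rat, rat 3 was the highest for 54.7%, while rat 2 was the lowest for 43.9% and rat 1 for 37.3%. Rats 1 and 2 were on slide 1, and rats 3 and 4 on slide 2. The fork genes had a median log2 fold change of 0.49 within slide 1 and 0.58 within slide 2, and the repair genes 0.47 and 0.57. A fit that took the slide as a block called the same 20 genes, and 2.84% of all genes higher. Within slide 1 alone limma called 0 genes in the whole table (1025 higher and 607 lower at an unadjusted p under 0.05), and 15 of the 25 fork and 6 of the 12 repair genes were higher unadjusted. Within slide 2 it called 6 fork and 3 repair genes higher, against 0.69% of all genes.

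Further genes of the same pathways were read from lists outside the set. Of 26 other fork genes tested, 7 were higher and none lower (unadjusted, 11 and 0), and their median log2 fold change was 0.093. Over all genes, 2.57% were called higher, and 10.1% were higher and 7.6% lower unadjusted. Of the 21 other fork genes with a probe well above background on all 8 arrays, 5 were higher, against 2.18% of all such genes. Esco2, which ties sister chromatids together, was 3.49-fold higher and Mms22l, the binding partner of Tonsl, 3.28-fold (adjusted p = 0.0162 and 0.000954 by limma). Wdhd1, which couples polymerase alpha to the helicase, Chtf18, part of an alternative clamp loader, and Recql4, a helicase, were 2.46-, 2.39- and 2.29-fold higher. For these 3 the adjusted p ran from 0.00262 to 0.0235 by limma. Esco2 and Wdhd1 were each well above background in 2 of 4 sham rats.

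Of 49 other repair genes tested, 5 were higher (10.2%, against 2.57% of all genes) and none lower, with a median log2 fold change of 0.050. Unadjusted, 11 were higher (22.4%) and 2 lower (4.08%), against 10.1% and 7.6% of all genes. Of the 46 other repair genes with a probe well above background on all 8 arrays, 3 were higher, against 2.18% of all such genes. Ube2t, the conjugating enzyme of the Fanconi pathway, gave a fold of 3.84, which is uncertain because only 1 of 4 sham rats was well above background. Bard1, the partner of Brca1, was 2.64-fold higher. Brip1, a helicase, and Palb2, which links Brca1 to Brca2, were 2.46- and 1.5-fold higher, Brip1 with 3 of 4 sham rats well above background. For these 4 the adjusted p ran from 0.00226 to 0.0199 by limma. The 2 genes lower unadjusted were Xpa, of nucleotide excision repair (log2 fold change -0.36, adjusted p = 0.0687 by limma), and Aptx, which clears blocked ends at strand breaks (-0.43, adjusted p = 0.186 by limma). Both were named after their values were seen.

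Among markers of leukocytes, 21 of 25 had a matched probe and 16 were tested. None was higher and 1 was lower by limma (unadjusted, 0 and 3, where 10.1% and 7.6% of all genes were higher and lower). That 1 was Mrc1, a macrophage receptor (log2 fold change -0.59), and the others lower unadjusted were S100a8 and S100a9, of neutrophils and monocytes (-1.01 and -0.78). The summed level of the 16 was 46.8 to 59.4 times the array's 75th percentile in the sham rats and 47.7 to 61 times in the nephrectomized rats. Most of that sum came from the bright probes of Lyz2, C1qb and C1qa, so it says little of the other markers. Cd79b of B cells, Cd3e and Cd4 of T cells and Itgam of myeloid cells were among those too dim to be tested. Summed proximal tubule markers were 1847 to 1897 times the percentile in the sham rats and 1778 to 1826 times in the nephrectomized rats, without overlap. The brightest probes in that sum, Fbp1 and Slc13a3, did not fall (log2 fold change 0.044 for each), so the sum does not speak for every marker. By limma 1 of 14 was lower (Miox). Unadjusted, Ggt1 (log2 fold change -0.42) and Kap (-0.32) were also lower, where 7.6% of all genes were lower. Of the 14, 10 had a negative log2 fold change, and the median was -0.11. Of 9 endothelial markers tested, 1 was lower, Vwf (log2 fold change -0.32, adjusted p = 0.0467 by limma). Unadjusted, Pecam1 was also lower (-0.33) and Kdr higher (0.22). The summed level of the 9 was 28.2 to 34.8 times the percentile in the sham rats and 33 to 35.1 times in the nephrectomized rats. Most of that sum came from the bright probe of Kdr. No marker was called among 7 mesenchymal, 7 podocyte, 10 thick limb and distal and 2 erythroid genes tested by limma, and 1 had an unadjusted p under 0.05 (Col1a1, log2 fold change 0.29). The part of these markers in the results above was not tested.

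The call of most genes did not rest on a single rat. Of the 20 genes called higher, 17 kept their call whichever of the 8 rats was left out, and the other 3 were Pcna, Rpa2 and Chek2. Leaving out sham rats 1 to 4 in turn, 2.5, 1.6, 1.41 and 1.68% of all genes were called higher, and leaving out nephrectomized rats 1 to 4, 1.99, 1.85, 2.29 and 1.43%. Dim probes changed more than bright ones with normexp. That setting adds an offset of 50 to every spot, which by itself shrinks the folds of dim probes. How much of the fall came from the offset was not tested. With normexp, which called 2.3% of all genes higher, the log2 fold change fell from 1.63 to 0.60 for Pole, from 1.21 to 0.40 for Tonsl, from 1.00 to 0.47 for Gins2 and from 1.44 to 0.74 for Chek1. It fell from 1.46 to 0.89 for Exo1 and from 1.05 to 0.51 for Fancd2, and Brca2 fell from 0.84 to 0.38. Bright probes moved little, with 0.60 before and after for Pcna and 1.61 against 1.41 for Chaf1b. Other called genes also fell, among them Timeless (1.17 to 0.82), Rad51ap1 (1.07 to 0.84), Rad54l (1.05 to 0.83), Rad18 (0.79 to 0.58) and Chek2 (0.48 to 0.37). The order of genes by fold therefore depends on the background correction and its offset. Without a filter on dim probes, which raised the number tested to 35237, Pcna, Rfc3, Rpa2, Chek2 and Brca2 were not called, and 0.692% of all genes were called higher.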

How the data were processed

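Total kidney RNA (RNeasy Mini Kit) was labelled with Cy3, per the labels' protocols. The authors deposited 1 file per array (Agilent design 014879, Feature Extraction 10.5.1.1, annotation build rn4, per the file headers) with each spot's intensity, background-subtracted and detrended but not scaled between arrays. They also deposited a log2 table of 30448 rows, which matched log2 intensity minus the 75th percentile, centred per probe (r = 0.9999 across probes, column medians -0.0169 to 0.0152), with no statement of how its probes were chosen.

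Here log2 processed intensity was averaged over unflagged spots of a probe, less each array's 75th percentile. Kept probes were well above background (in at least 0.5 of their spots) on all arrays of 1 group or more. Names came from RefSeq accessions matched to the GRCr8 gene table (18713 of 41012 probes). A gene's brightest probe was used. The test was that of limma 3.58.1 (R 4.3.3, two-sided, no covariates), checked on simulated data. For a gene below background on all sham arrays, the bound sets the nephrectomized mean against the sham mean of, per array, the higher of its own value and the lowest well-above-background value. Precision is limited by having 4 arrays a group. The labels number the samples without stating that each is a separate rat, as is assumed here, so p-values measure the spread between these samples, which may be technical. The members, lists, pairs and motifs were chosen with earlier results of these data known. Rats' values are given for the gene of largest and of smallest absolute change in each role group and for Pcna. Prim1, Timeless, Tipin, Tonsl, Rfc4 and others beyond that were chosen after their values were seen. Same-numbered rats of the groups did not deviate together in all pairs (r from -0.0183 to 0.104), so the numbers were not taken as pairs. The alternatives were other scalings (quantile, median), normexp (offset 50, on median spot intensity), the deposited table, other filters, probe rules, variance models and thresholds, the slide or the replicate number as a block, each slide alone, each rat left out, and Tonsl, Chek2 and Rad17 counted as repair genes. Values of some genes in the other pathway and marker lists are not reported here, though the counts include them.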

Additional observations from a re-analysis of the deposited data

Results flagged for a closer look

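In 4 of 74 groups of 4 rats, the most distant rat stood apart from the rest by more of its group's range than Dixon's 95% value, about the share of 1 in 20 that chance gives. Sham rat 1 was the lowest of its group for Pcna (0.873), and sham rat 2 for Chek1 (0.831). Nephrectomized rat 1 was the lowest of its group for Rfc3 (0.841) and Gins2 (0.889), while still above every sham rat. Each of these 4 genes stayed called higher when the rat that stood apart was left out. The values are the gap to the nearest rat divided by the range.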

How the results depend on the processing

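The counts of 14 fork and 6 repair genes called higher stayed within 1.5 times under the scalings, the deposited table, both other filters, the other probe and variance rules, an adjusted p of 0.01, a block for slide, the omission of each rat (11 to 14 and 6 to 6) and the other split into fork and repair (12 and 8). Within slide 1 they were 0 and 0, and within slide 2 they were 6 and 3, where fewer rats were compared. No fork or repair gene was called lower under any of these. The medians moved with normexp (0.37 for the fork, 0.28 for repair), and that of repair without a filter on dim probes (0.19) and with a filter on all 8 arrays (0.19). With each rat left out the medians were 0.48 to 0.55 and 0.45 to 0.53.

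Over all genes the main count was 714 (511 higher, 203 lower). It was 282 (244 and 38) without the filter, 2520 (1391 and 1129) with array weights, 260 (227 and 33) at an adjusted p of 0.01, 0 (0 and 0) within slide 1 and 141 (137 and 4) within slide 2. Leaving out a rat gave 341 to 720 genes (280 to 497 higher, 57 to 223 lower). With replicate number as a block, although the numbers were not taken as pairs, 296 genes were called (243 and 53), with 10 fork and 5 repair genes higher. Signs turned for genes that were not called: with normexp for Xrcc5 (-0.057), with the mean of probes for Rfc1 (-0.0043), with array weights for Prim2 (-0.090), Rfc4 (-0.14), Rpa3 (-0.071), Rad17 (-0.0068) and Xrcc5 (-0.083), and within slide 2 for Prim2 (-0.070), Xrcc5 (-0.014) and Ung (0.13). With each rat left out, the sign turned at one end of the range for Prim2 (-0.076 to 0.056), Rfc4 (-0.026 to 0.48), Rpa3 (-0.021 to 0.16), Xrcc5 (-0.061 to 0.053), Xrcc1 (-0.0025 to 0.11) and Ung (-0.18 to 0.020). The cause was not tested. Signal near background limits the folds of Pole, Tonsl, Gins2, Chek1, Brca2 and Fancd2. Exo1, Timeless, Rad18, Chek2, Rad51ap1 and Rad54l kept 0.61 to 0.79 of their log2 fold change with normexp.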
